A study of Homo sapiens with 3 samples.

Results

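Septins are GTP-binding cytoskeletal proteins, and in these tables their genes carry symbols that read as dates, such as 3-Sep for SEPTIN3. The genes described here are SEPTIN2 to SEPTIN11, listed as 2-Sep to 11-Sep, 10 of the 27307 gene symbols in all. Several transcript entries share a symbol, and for each symbol 1 entry was kept. Genes were chosen by symbol and entries were selected on measured values, namely the highest mean level over the libraries, so that levels below are a description. The identity of the symbols was checked by RefSeq accession: all 73 entries under these 10 symbols belonged to the septin of that number, and no symbol ending in Sep held more than 1 gene.

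The study collected RNA-seq of polyadenylated RNA from teratomas, benign tumours of mixed differentiated tissues, grown from H1, an established human embryonic stem cell line. Per the labels, 1000000 cells, kept before on Matrigel in E8 medium, went subcutaneously into SCID-beige mice, which lack mature T and B cells, and growth lasted 3 to 4 weeks. The 3 libraries form 1 group, for which the labels name neither a treatment nor a genetic change, and are numbered as teratomas 1, 2 and 3. Whether each came from its own tumour is not stated, so spread between them may be technical. Such tumours also hold vessels, blood and stroma of the host mouse.

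Septins of different subgroups join end to end into rod-shaped complexes, which assemble into filaments, rings and gauzes under the plasma membrane. They are known as scaffolds and diffusion barriers at the cleavage furrow of dividing cells, at the base of cilia and at the necks of dendritic spines. By sequence they fall into the SEPT2, SEPT6, SEPT7 and SEPT3 groups, and a complex takes its subunits from different groups. In brain, SEPTIN3 and SEPTIN5 are known as septins of nerve terminals, whereas SEPTIN2, SEPTIN7 and SEPTIN9 are made in most tissues.

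Levels are given in RPKM, the reads on a transcript divided by its kilobases and by the library's reads in units of 1000000, so that genes of different length can be compared. Between 43605458 and 46243199 reads stood behind each library. All 10 septins reached 1 RPKM in each library, against 52.7% of all genes. SEPTIN9 stood highest by mean (119.5 ± 34 RPKM, SD, n = 3) and SEPTIN4 lowest (2.85 ± 1.68). The order between them was SEPTIN2 (103 ± 16.8), SEPTIN3 (103 ± 83.5), SEPTIN5 (70.2 ± 38.7), SEPTIN11 (43.6 ± 0.61), SEPTIN6 (25.9 ± 12.1), SEPTIN7 (17.5 ± 2.24), SEPTIN8 (14.8 ± 4.52) and SEPTIN10 (9.35 ± 2.04). Neighbours in this order whose ranges over the libraries did not overlap were SEPTIN5 and SEPTIN11, SEPTIN11 and SEPTIN6, and SEPTIN10 and SEPTIN4. All other neighbours overlapped, so SEPTIN9, SEPTIN2, SEPTIN3 and SEPTIN5 could not be ordered beyond their spread. Although their ranges overlapped, SEPTIN6 lay above SEPTIN7 and SEPTIN8 above SEPTIN10 within each library. The order is that of the kept entries and changed when the longest entry was kept.

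**Figure D1:**
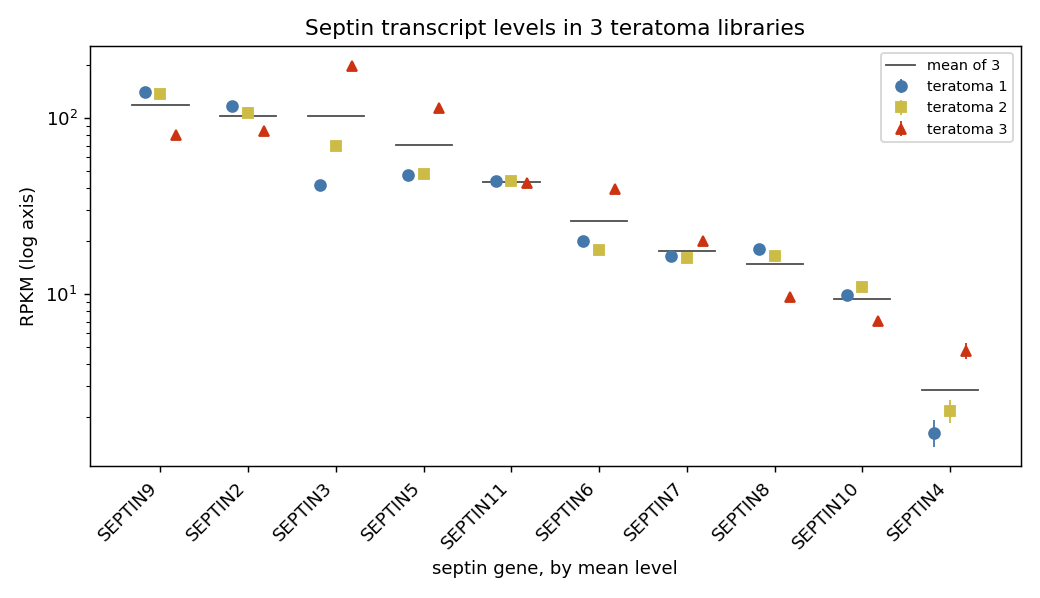
RPKM (log axis) of the 10 septins in teratomas 1, 2 and 3, ordered by mean, with 95% exact Poisson intervals of the read counts as error bars (often smaller than the symbols) and the mean of the 3 libraries as a line. Teratoma 3 lies above both others for SEPTIN3, SEPTIN5, SEPTIN6, SEPTIN7 and SEPTIN4, and below both for SEPTIN9, SEPTIN2, SEPTIN11, SEPTIN8 and SEPTIN10.

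Differences between libraries were read on the log2(RPKM + 1) scale, which understates those of low genes. Since each library is 1 sample, no test was possible, and a difference of 1 stands in for a call. The highest and the lowest library differed by at least 1 for 4 of 10 septins, SEPTIN3, SEPTIN4, SEPTIN5 and SEPTIN6, against 20% of the 15701 genes whose mean reached 1 RPKM. Without teratoma 3 the count was 0, where 2.56% of genes differed by at least 1. A difference of at least 2 was found for SEPTIN3 alone, against 2.65% of genes. Teratoma 3 exceeded the mean of teratomas 1 and 2 by at least 1 for the same 4 septins, where 5.74% of genes did so. It lay below by at least 1 for 0 of 10, where 8.93% of genes did so.

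The count of 4 depended on which transcript entry stood for a gene. It was 2, SEPTIN3 and SEPTIN5, with the mean over the entries of a symbol (5.68% of genes) or with its longest entry (5.66%). SEPTIN4 (1.00) and SEPTIN6 (1.03) lay just inside the limit, and SEPTIN7 (0.29) was the next below it. Teratoma 3 was the highest library for 5 of 10 septins (39.9% of genes) and the lowest for the other 5 (48.1% of genes). The median difference of the 10 septins was 0.13, beside -0.05 over all 15701 genes.

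**Figure D2:**
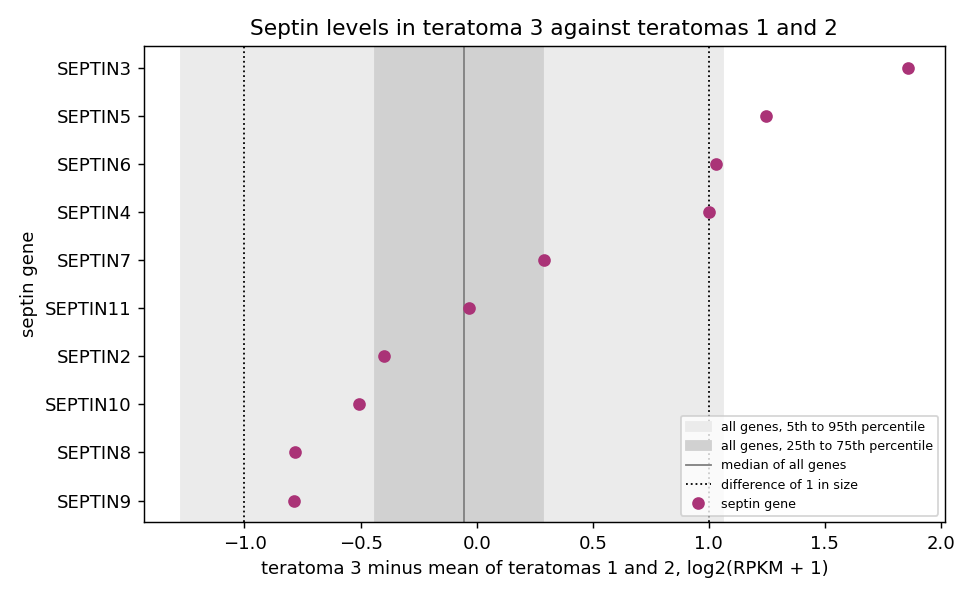
Difference between teratoma 3 and the mean of teratomas 1 and 2 on log2(RPKM + 1) for each septin (points), with the spread of the 15701 genes whose mean reached 1 RPKM as grey bands. SEPTIN3 (1.86) and SEPTIN5 (1.25) lie beyond the 95th percentile of all genes (1.06), SEPTIN6 (1.03) and SEPTIN4 (1.00) just inside it, and SEPTIN8 and SEPTIN9 are the lowest at -0.78.

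SEPTIN3, of the SEPT3 group, is a brain septin found at presynaptic terminals. It stood at 41.6, 69.8 and 198 RPKM in teratomas 1, 2 and 3. Teratoma 3 was far above both others, at 3.56 times their mean, and teratoma 1 was the lowest. The 95% counting intervals of the 3 libraries lay apart (40.4 to 42.8, 68.2 to 71.3 and 196 to 201 RPKM). Of the 15701 genes, 67 had a difference of that size (1.86) or larger, SEPTIN3 included.

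SEPTIN3 has 2 entries with different coding ends. Both are shown because the level in teratoma 3 stood out alike in either. The last 30 coding bases that the entries share are in lower case. Capitals mark bases that code in 1 entry alone, up to and with the stop codon. Such bases may still lie in the other entry past its stop codon. The sequences are from GENCODE release 29 transcripts (GRCh38) paired with the RefSeq entries. The capitals lie on the plus strand at chr22:41996902-41996967 and chr22:41994715-41994756.
SEPTIN3, entry NM_145733: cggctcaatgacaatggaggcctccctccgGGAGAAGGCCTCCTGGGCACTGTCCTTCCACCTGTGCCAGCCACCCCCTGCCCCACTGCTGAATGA
SEPTIN3, entry NM_019106: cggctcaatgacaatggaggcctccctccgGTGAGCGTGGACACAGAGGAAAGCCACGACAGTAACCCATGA
The kept entry NM_145733, of 2469 bases, held 4751, 7890 and 21334 reads. Entry NM_019106, of 4656 bases, stood at 38.8, 63.7 and 181 RPKM. It differed from the mean of the other libraries in teratoma 3 by 1.84, close to the 1.86 of the kept entry. Reads of shared exons were counted for both entries, so this likeness is partly built in.

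SEPTIN9, the other of the 10 septins that belongs to the SEPT3 group, is widely made and binds microtubules and actin. It stood at 142, 137 and 80.3 RPKM. Teratomas 1 and 2 were alike, and teratoma 3 was 0.577 times their mean. SEPTIN3 and SEPTIN9 thus stood in reverse order in teratoma 3: the ratio of SEPTIN3 to SEPTIN9 was 0.294, 0.51 and 2.47 in teratomas 1, 2 and 3. The 11 entries of SEPTIN9, had differences in teratoma 3 of -0.82 to -0.78.

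Of the 10 septins, SEPTIN2, SEPTIN5 and SEPTIN4 belong to the SEPT2 group. SEPTIN2, a septin of the cleavage furrow and the ciliary base, stood at 118, 107 and 85.1 RPKM, lowest in teratoma 3 at 0.755 times the mean of the others. Its 13 entries had nearly the same level (mean 92.3 to 103 RPKM) and the same difference (-0.40).

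SEPTIN5, a septin of nerve terminals and platelets that binds syntaxin, stood at 47.4, 48.2 and 115 RPKM. Teratomas 1 and 2 agree within counting error (46 to 48.8 and 46.8 to 49.7 RPKM), and teratoma 3 was 2.4 times their mean. The difference of 1.25 was reached by 502 of 15701 genes, SEPTIN5 included, and the other entry of SEPTIN5 gave 1.21. SEPTIN5 was 0.402 and 0.449 times SEPTIN2 in teratomas 1 and 2, and 1.35 times SEPTIN2 in teratoma 3.

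SEPTIN5 is followed on its strand by GP1BB, the beta chain of the platelet receptor for von Willebrand factor, and a read-through entry joins both genes. The read-through entry SEPT5-GP1BB stood at 47.9, 46.5 and 104 RPKM and GP1BB at 46.3, 41.2 and 81.4. Reads of these 3 genes cannot be told apart where their exons overlap. Of the 6 endothelium and platelet genes, 5 had a mean that reached 1 RPKM, and 4 of these were lower in teratoma 3 by at least 1, while GP1BB was higher by 0.88. The platelet chemokine PF4 was under 1 RPKM in all 3 libraries. How far GP1BB reads come from the SEPTIN5 transcript was not tested.

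SEPTIN4, known for a filament-forming form in sperm and brain and for ARTS, a shorter form that promotes apoptosis, stood at 1.62, 2.16 and 4.77 RPKM. Teratoma 3 was 2.52 times the mean of the others on 126, 166 and 349 reads, and its counting interval (4.28 to 5.3 RPKM) lay above those of teratoma 1 (1.35 to 1.93) and teratoma 2 (1.84 to 2.52). The 9 entries of SEPTIN4, 3 of them non-coding, had differences of 0.91 to 1.02. The longer entry NM_080415 held 6, 7 and 17 reads more than the kept one for 268 bases more, too few to set the forms of SEPTIN4 apart.

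SEPTIN6, SEPTIN8, SEPTIN10 and SEPTIN11 belong to the SEPT6 group, whose members sit beside SEPTIN7 in the complex. SEPTIN11, a septin of dendritic spines and inhibitory synapses that is also made outside the brain, differed least of all, with 43.9, 44.1 and 42.9 RPKM and a coefficient of variation of 1.4%. SEPTIN10 stood at 9.94, 11 and 7.08 RPKM, lowest in teratoma 3, and its 21 entries gave differences of -0.64 to -0.46.

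SEPTIN6, a core subunit of the best known septin complex, stood at 20.1, 17.9 and 39.8 RPKM in its kept entry, 2.09 times the mean of the others in teratoma 3. Its entries differed from each other in this. In the paired GENCODE release 29 models the last exons of the kept entry NM_145802 and of NM_145800 begin at the same base. They hold 31 and 1019 bases in the models. The entries as counted differ far less in length, at 2563 and 2608 bases, so the models do not give the ends that were counted. The model last exons of NM_015129 and NM_145799 overlap each other and lie nearer to the shared exons. NM_145800 stood at 19.8, 17.6 and 39.1 RPKM, like the kept entry. NM_015129 stood at 20.2, 12.5 and 19.4 and NM_145799 at 15.5, 9.64 and 14.6, with teratoma 2 lowest and teratomas 1 and 3 alike.

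The difference of teratoma 3 was therefore 1.03 in both entries whose last exon lies farther downstream, and 0.27 and 0.23 in the others. The reads of the kept entry minus those of NM_015129 came to -776, 163 and 1575 in teratomas 1, 2 and 3, for a length difference of -823 bases. In the models of these 4 entries, 9 exons are common to all, and the models differ in an exon of 45 bases held by 2 of them and in the last exon. Reads by exon are not in the tables used, so where within the entries the reads differ was not tested. The coding ends of the SEPTIN6 entries are shown to tell the entries apart. Lower case marks the last 30 coding bases shared by all 4, and capitals the coding bases after them, the stop codon included. The capitals lie on the minus strand of GRCh38 at chrX:119616733-119616742, chrX:119625376-119625379, chrX:119618762-119618786 and again chrX:119625376-119625379.
SEPTIN6, entry NM_145802: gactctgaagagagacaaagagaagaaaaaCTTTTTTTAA
SEPTIN6, entry NM_145800: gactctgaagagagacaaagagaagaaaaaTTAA
SEPTIN6, entry NM_015129: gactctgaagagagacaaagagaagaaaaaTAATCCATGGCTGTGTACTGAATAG
SEPTIN6, entry NM_145799: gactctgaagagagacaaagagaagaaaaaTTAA
NM_145800 and NM_145799 have the same coding end but different last exons, and their levels in teratoma 3 were 39.1 and 14.6 RPKM. Their coding sequences hold 427 codons before the stop, beside 429 for NM_145802 and 434 for NM_015129.

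SEPTIN8, a septin of nerve terminals and myelin, also had entries that differed. Its kept entry NM_001300798 stood at 18.2, 16.5 and 9.65 RPKM, 0.556 times the mean of the others in teratoma 3, and 4 further entries followed it with differences of -0.80 to -0.78. Entry NM_001098811 stood at 9.18, 10 and 10.1 RPKM, with a difference of 0.07. In the paired models it ends in a last exon of its own, downstream of those of the entries it was compared with. As for SEPTIN6, the model ends may differ from those that were counted. The kept entry held 2197, 1752 and 435 reads more than NM_001098811 in teratomas 1, 2 and 3, and it is 1182 bases longer. The coding ends are shown with the last 30 coding bases shared by the entries shown in lower case. Capitals mark the coding bases after them, the stop codon included. The capitals lie on the minus strand at chr5:132758514-132758556, chr5:132758821-132758824 and chr5:132752016-132752181. Those of the kept entry also lie within the last exon of NM_015146, past its stop codon.
SEPTIN8, entry NM_001300798: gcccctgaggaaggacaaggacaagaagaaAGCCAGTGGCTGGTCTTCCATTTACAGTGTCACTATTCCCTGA
SEPTIN8, entry NM_015146: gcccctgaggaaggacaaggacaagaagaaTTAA
SEPTIN8, entry NM_001098811: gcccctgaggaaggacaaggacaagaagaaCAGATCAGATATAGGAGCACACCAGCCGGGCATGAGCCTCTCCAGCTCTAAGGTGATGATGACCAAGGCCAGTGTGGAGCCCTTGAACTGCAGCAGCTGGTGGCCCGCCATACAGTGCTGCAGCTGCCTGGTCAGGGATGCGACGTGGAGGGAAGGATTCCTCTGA
NM_001098811 codes for the longest of these ends, 483 codons before the stop beside 440 and 429. The ratio of the kept entry to it was 1.98, 1.65 and 0.951 in teratomas 1, 2 and 3, so that both stood close together in teratoma 3.

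**Figure D3:**
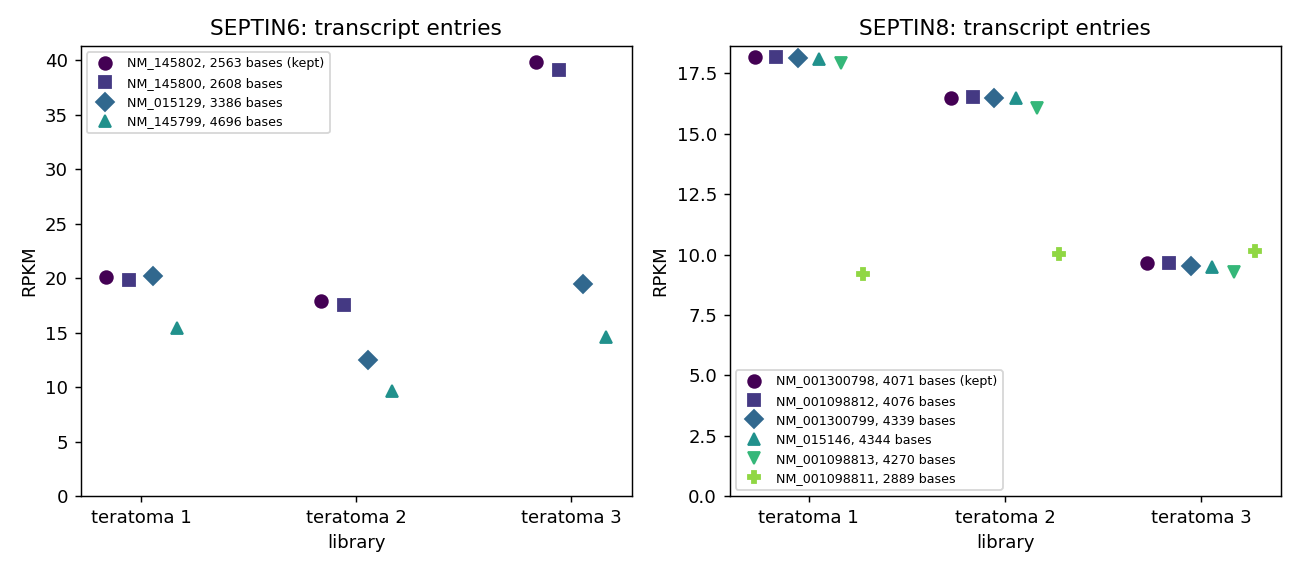
RPKM of every transcript entry of SEPTIN6 (left) and SEPTIN8 (right) in teratomas 1, 2 and 3, with the length of each entry and the kept one in the legend. In SEPTIN6 the entries NM_145802 and NM_145800 reach 39.8 and 39.1 RPKM in teratoma 3 while the others are at 19.4 and 14.6, and in SEPTIN8 entry NM_001098811 lies between 9.18 and 10.1 while the other 5 are lowest in teratoma 3.

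SEPTIN7, the only functional gene of its group and a subunit common to the known complexes, stood at 16.5, 16 and 20.1 RPKM. Teratoma 3 was slightly higher, at 1.24 times the mean of the others, and the 3 entries gave the same difference (0.29). SEPTIN7 has many pseudogene copies, whose reads cannot be told apart from its own with certainty. The pseudogenes SEPT7P2 and SEPT7P9 were listed at 2.23, 1.99 and 2.45 and at 0.741, 0.293 and 0.718 RPKM.

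Summed over the 10 septins, the level was 459, 469.6 and 603 RPKM. The SEPT3 group made up 39.9%, 44% and 46.2% of that sum in teratomas 1, 2 and 3, and the SEPT2 group 36.4%, 33.6% and 34%. The SEPT6 group made up 20.1%, 19.1% and 16.5%, and SEPTIN7 3.59%, 3.4% and 3.33%. The mean shares of the SEPT3, SEPT2, SEPT6 and SEPT7 groups were 43.4% ± 3.18, 34.6% ± 1.53, 18.5% ± 1.85 and 3.44% ± 0.134 (SD, n = 3). Within the SEPT3 group the members differed in opposite directions. SEPTIN3 held 9.07%, 14.9% and 32.9% of the sum over the 10 septins, and SEPTIN9 held 30.9%, 29.1% and 13.3%. The order of members within the SEPT3 and SEPT2 groups was not the same in all libraries. In teratoma 1 the order ran SEPTIN9, SEPTIN2, SEPTIN5, SEPTIN11, SEPTIN3, and in teratoma 3 it ran SEPTIN3, SEPTIN5, SEPTIN2, SEPTIN9, SEPTIN11. These shares depend on keeping 1 entry per symbol: with all entries summed, the mean share of the SEPT2 group (43.7%) was above that of the SEPT3 group (41.7%), and SEPTIN7 held 1.62%. SEPTIN7 has 3 entries and SEPTIN2 has 13.

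**Figure D4:**
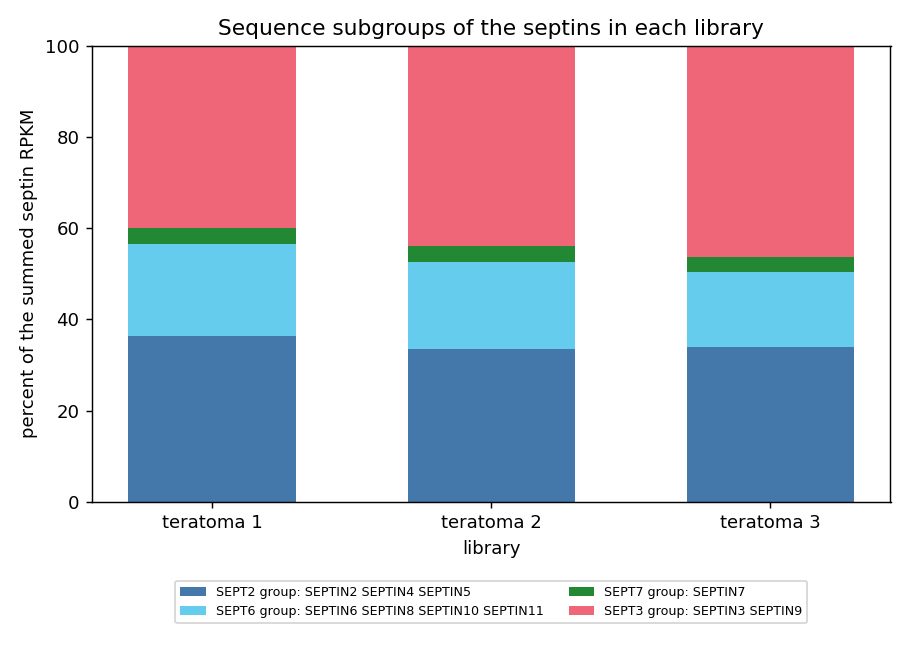
Stacked bars of the percent of the summed septin RPKM held by each sequence subgroup in teratomas 1, 2 and 3. With 1 entry kept per symbol, the SEPT3 group is the tallest band in each library (39.9% to 46.2%), and SEPTIN7 the shortest (3.33% to 3.59%).

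Of the septins outside this range of numbers, SEPTIN12 and SEPTIN14 were under 1 RPKM throughout, while SEPTIN1 lay near SEPTIN4, the lowest member. SEPTIN1, known from blood cells and skin, stood at 2.57, 1.85 and 1.64 RPKM, above SEPTIN4 in teratoma 1 (1.62 RPKM). SEPTIN12, a septin of the sperm tail, stood at 0.128, 0.143 and 0.226 RPKM on 9, 10 and 15 reads. SEPTIN14, known from testis, had 0, 1 and 0 reads, and 3 reads would have given 0.0171, 0.0173 and 0.0182 RPKM.

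Markers of cell types also differed between the libraries. All 13 neuron genes were higher in teratoma 3 by at least 1 (median difference 1.71), and their summed level was 895, 1135 and 3018 RPKM. None of them was at 0. TUBB3, a neuronal tubulin, stood at 435, 509.8 and 1216 RPKM, and STMN2, a regulator of axonal microtubules, at 103, 137 and 439.6. SEPTIN3 and SEPTIN5 were higher in teratoma 3 as the neuron list was, and so were SEPTIN4 and SEPTIN6 in their kept entries. SEPTIN8, also known from nerve terminals, was lower there (-0.78), and SEPTIN11, known from synapses, was nearly level (-0.03). The part of neuron content in these differences was not tested. In bulk RNA, more cells of a type and more RNA per cell cannot be told apart.

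The fibroblast and mesenchyme list differed the other way, with 9 of 10 genes lower by at least 1 in teratoma 3 (median -1.71) and a summed level of 1983, 1610.2 and 441 RPKM. COL1A1, a fibrillar collagen, stood at 699, 475 and 128 RPKM, and COL3A1 at 427, 443 and 114. SEPTIN9, SEPTIN8, SEPTIN2, SEPTIN10 and SEPTIN11 were lowest in the same library, by less, as were 48.1% of the genes whose mean reached 1 RPKM. The part of stroma or of any other tissue in their levels was not tested. All 7 endoderm and liver genes were lower in teratoma 3 by at least 1 (median -2.22), with a sum of 998, 3417 and 321 RPKM. AFP, a fetal plasma protein, stood at 452, 1889 and 159 RPKM and APOA1, an apolipoprotein, at 371, 1205 and 109.

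Proliferation genes were lower by at least 1 in 1 of 6 cases in teratoma 3 (median -0.70, sum 204, 170.3 and 106 RPKM). PCNA stood at 64.6, 54.4 and 36 RPKM and TYMS at 57.7, 43.3 and 24. Of 5 neural progenitor genes 2 were higher by at least 1 (median 0.38, sum 236, 249 and 376). SOX2 stood at 86.8, 87.1 and 107 RPKM and NES at 94, 87.8 and 98.4. Of the 6 myelin and glia genes, which matter here because SEPTIN2, SEPTIN4, SEPTIN7 and SEPTIN8 are known from the myelin sheath, 5 had a mean that reached 1 RPKM. In teratoma 3, 1 of them was higher and 2 were lower by at least 1. SOX10, a glial factor, stood at 21.6, 11.3 and 3.99 RPKM, and MAG was under 1 RPKM throughout. Of the 5 leukocyte genes PTPRC, CD3E and CD79A were under 1 RPKM throughout, and CD74 (24.4, 17.9 and 8.94) and CD68 (7.19, 10.2 and 3.45) were lower in teratoma 3 by at least 1.

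Partners of the septins were taken from fixed lists. Borg proteins are effectors of the GTPase CDC42 that bind septins and organise their filaments. None of the 6 genes of this list was higher in teratoma 3 by at least 1 and 2 were lower (median -0.31, beside -0.05 over all genes). CDC42EP4 stood at 73.9, 60.4 and 67.1 RPKM and CDC42 at 54.2, 55 and 52.9. Of 11 cytokinesis genes, 0 were higher and 3 lower (median -0.65). RHOA, the GTPase of the contractile ring, stood at 165, 156 and 117 RPKM, and MYH9, a non-muscle myosin, at 69.1, 61.6 and 19.7. Of 5 exocytosis partners, which include the syntaxin bound by SEPTIN5, 2 were higher and 0 lower (median 0.91). VAMP2 stood at 40.5, 49 and 110.1 RPKM and SNAP25 at 9.04, 15.3 and 42, both proteins of synaptic vesicle fusion.

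The 3 septins with the widest range were compared with 9948 other genes whose mean reached 5 RPKM. The measure was the Euclidean distance between their 3 deviations from the gene mean on log2(RPKM + 1), over 3 libraries. The genes most like SEPTIN3 were LHFPL4 (4.3, 7.93 and 24.5 RPKM, distance 0.029), GPM6A (35.2, 59.1 and 175, distance 0.0455) and TMEM35A (10.8, 17.4 and 52.4, distance 0.0634). Those most like SEPTIN5 were TMEM145 (6.03, 6.02 and 15.8, distance 0.02), FSD1 (13.6, 13.5 and 33.1, distance 0.0272) and ACHE (5.88, 6.05 and 15.9, distance 0.0309). Those most like SEPTIN4 were ARNT2 (23.2, 28.3 and 52.4, distance 0.0033), NIPA1 (4.2, 5.27 and 10.4, distance 0.0037) and SARAF (74.9, 90.7 and 167, distance 0.0049). SEPTIN4 itself, with a mean of 2.85 RPKM, lay below the level asked of the compared genes. Adding 1 to RPKM shrinks its deviations more than theirs. In RPKM these genes therefore rose by a smaller factor in teratoma 3 than SEPTIN4 did. Within a distance of 0.1 lay 12 genes for SEPTIN3, 30 for SEPTIN5 and 131 for SEPTIN4.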

How the data were processed

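RNA-seq of 3 teratoma libraries was used, 1 deposited table per library without a header. The submitters' processing notes name Bowtie2 and hg19. How reads were counted, filtered and assigned to strands, and whether mouse reads were removed, was not given in the sources used here, so overlapping and antisense genes cannot be told apart. The deposited read counts are raw whole-number reads per RefSeq transcript. In RPKM, the authors divided these counts by transcript kilobases and by the library's reads in units of 1000000, and the totals were recovered from them. Reads of shared exons were counted for several entries, so entries of a gene are not independent, and 1 entry per symbol was kept. Lengths and placement numbers were the same in all 3 tables.

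Counts of genes past a difference used a pseudocount of 1 and genes whose mean reached 1 RPKM. No group comparison exists, so no test was fitted. Counting intervals (95%, exact Poisson) and the 3-read floor cover counting error only. No library was a copy of another: in genes with 20 reads or more in a pair, the mean chi-square of a gene was 57.7, 313 and 233 for teratomas 1 and 2, 1 and 3, and 2 and 3. The calls were tested on simulated counts with counting error only and with changes well beyond the limit of 1. Spread between libraries and changes near that limit were not simulated. The members, lists and rules were chosen with earlier results of these data known. Named were all members, the other septins, the 2 genes with the highest mean of each list (1 gene of the myelin and glia list is not reported here), GP1BB, and for the 3 members with the widest range the 3 nearest genes. Genes under 1 RPKM in all libraries, 2 related pseudogenes and the read-through entry were named beside that rule, and the entries of SEPTIN6 and SEPTIN8 were singled out after their values were seen. Alternatives covered the entry per symbol, scaling, pseudocount, filters, detection level and each library left out. Accessions were matched to RefSeq genes and GENCODE release 29 on GRCh38, used for names, sequences, their positions and exon models only. Python 3.11.15, numpy 2.4.6, pandas 2.3.3, scipy 1.17.1 and matplotlib 3.10.9 were used.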

Additional observations from a re-analysis of the deposited data

How the results depend on the processing

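All 10 septins reached 1 RPKM in each library under each scaling, entry rule and left-out library tried (52.1% to 62.6% of all genes). In each library, 9 reached 5 RPKM (31.2% of all genes) and 7 reached 10 RPKM (18.6%). The number varying by at least 1 was 4 (20% of genes). It was 3 with entries summed (22.8%), averaged (19.8%) or the longest kept (19.9%). It was also 3 among genes whose mean reached 5 RPKM (19.3%), a filter that SEPTIN4 does not pass. At a difference of at least 2 it was 1 (2.65%). It was 3 without teratoma 1 (12.7%), 3 without teratoma 2 (17.4%) and 0 without teratoma 3 (2.56%). The number higher in teratoma 3 was 4 (5.74% of genes). It was 3 with entries summed (6.45%) and among genes whose mean reached 5 RPKM (6.09%). It was 2 with the mean over the entries of a symbol (5.68%). It was also 2 with the longest entry (5.66%), an alternative chosen after seeing the data. At a difference of at least 2 it was 0 (0.185%). It was 3 without teratoma 1 (4.24%), 3 without teratoma 2 (7.54%) and cannot be computed without teratoma 3. The number lower in teratoma 3 was 0 in each alternative, where 0.618% to 13.6% of genes were lower. The summed level of 510 RPKM became 3289.5 when entries were summed and 1787 when libraries were rescaled to 1000000, both by construction, and lay between 464 and 536 with 1 library left out. With entries summed the SEPT2, SEPT3, SEPT6 and SEPT7 groups held 43.7%, 41.7%, 13.1% and 1.62%, so that the SEPT2 group passed the SEPT3 group. SEPTIN7 held 3.68% with the mean over entries and 4.0% with the longest entry. With the longest entry the mean level of SEPTIN6 (13.2 RPKM) fell below those of SEPTIN7 (17.5) and SEPTIN8 (14.7). SEPTIN3 (94.5) then stood above SEPTIN9 (92.7). Of 80 recomputed levels of single septins, 23 moved by at least the SD over libraries. These were all levels with entries summed or libraries rescaled, and some of SEPTIN6 and SEPTIN11 under other entry rules. Among single septins, the sign of the difference in teratoma 3 turned for SEPTIN11 alone, in 2 of 9 alternatives, both rescalings (from -0.03 to at most 0.05). Of 90 recomputed differences of single septins 87 moved by less than the SD over libraries, the exceptions being these 2 and the longest entry of SEPTIN6 (0.23). That SD includes teratoma 3 itself, so a large difference can move far and still be counted among the 87. With the mean over entries SEPTIN6 fell from 1.03 to 0.74, below the limit of 1, yet within its SD of 0.60. No paired analysis was possible because the series has 1 group. At this depth the levels of SEPTIN1, SEPTIN4, SEPTIN12 and SEPTIN14 rest on at most 349 reads in a library.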

Other observations

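Date-like symbols were not limited to septins. The tables hold 25 such symbols with 106 entries, 13 ending in Sep, 11 in Mar and 1 in Dec, and 0 symbols that are SEPT and a number alone, although 5 longer symbols such as SEPT7P2 start that way. While each Sep symbol held 1 gene, 2 Mar symbols held 2 genes each by RefSeq accession. Under 1-Mar were MARCHF1, a ubiquitin ligase, at 1.85, 2.81 and 7.33 RPKM in teratomas 1, 2 and 3, and MTARC1, a mitochondrial reductase, at 7.21, 10.4 and 5.55. Under 2-Mar were MARCHF2 (8.09, 9.81 and 12.3 RPKM) and MTARC2 (6.02, 5.84 and 2.62). In both pairs the ligase was highest and the reductase lowest in teratoma 3, so a summary by symbol joins genes that differ in opposite directions.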
